A study of Mus musculus with 4 samples.

Results

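RNA-seq of sympathetic ganglia (SG) was compared between 2 of the 4 libraries of the series, the library labelled TRKC+/- and the wild-type library WT_1, over all genes of the deposited tables. Each library was a pool of the T1–T4 ganglia of 6 mice, so that there is 1 pool for each mutant, 2 pools for wild type, and no spread between single mice can be estimated. The mice were C57BL/6, 12 weeks of age, and had spent 1 day at 5 °C, in every group. TRKC+/- mice carry 1 inactivated copy of *Ntrk3*, the gene of the neurotrophin-3 receptor TRKC, in all their cells, were bought as a line, and the sources used here do not say which exons the allele alters. The second wild-type library, WT_2, was used to see which differences also arise between pools of wild-type mice. The fourth library, AdNTF3-Tg, is from mice that overexpress neurotrophin-3 (NT-3) in adipocytes under the adiponectin promoter, and its values are given only beside the others. The labels do not tie either WT library to a mutant cohort, and WT_1 is the control here because the name of its deposited table carries the TRKC cohort. In the study each mutant had its own WT controls, so that between WT_1 and WT_2 differences of pool and of cohort cannot be told apart.

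Postganglionic sympathetic neurons of the upper thoracic chain make noradrenaline and send axons to targets that include interscapular brown fat, where noradrenaline turns on heat production through UCP1. They depend on neurotrophins, which bind tyrosine kinase receptors of the TRK family and the common receptor p75. NT-3 binds mainly TRKC. A dissected ganglion also holds satellite glia, Schwann cells, vessels, connective tissue and immune cells, and can carry remnants of the fat and muscle that surround it.

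The libraries held between 8665955 (WT_1) and 8894985 (TRKC+/-) expected reads on genes, and of 17667 genes listed in at least 1 library, 13693 had a mean of at least 10 expected reads over WT_1, TRKC+/- and WT_2 and were counted as measured. All 25 genes of a sympathetic neuron list were measured, with a summed level between 27284 and 27899 CPM (expected counts scaled to a common library total) over the 4 libraries, and *Th*, the rate-limiting enzyme of noradrenaline synthesis, had 39724 expected reads in WT_1, 41608 in the library labelled TRKC+/-, 39365 in WT_2 and 38338 in AdNTF3-Tg. Differences are log2 ratios of FPKM (reads scaled to transcript length and to library size) after adding 0.1 to each value, which understates the change of low genes. A gene is called higher or lower where this log2 ratio reached 0.5 in size and the exact 95% counting interval of its ratio of reads excluded 0 on the same side. The interval covers counting error only, and a call compares libraries, not genotypes.

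The targeted gene was not lower in the library labelled TRKC+/-. *Ntrk3* (Entrez 18213, chromosome 7 from 85337248 to 85723294 on NCBIM37) had 78 expected reads in WT_1, 91 in the library labelled TRKC+/-, 83 in WT_2 and 76 in AdNTF3-Tg, so that the 4 values lay close together. Its log2 ratio was 0.15 to WT_1 (counting interval −0.27 to 0.64) and 0.11 to WT_2 (−0.35 to 0.58). The deposited count joins the transcripts of the gene, including any made from the altered allele, so that it does not check the genotype, and the library is named by its label throughout. *Ntf3*, which encodes NT-3, had 2 expected reads in the library labelled TRKC+/- and was not listed in the others, which is under the 3 reads taken as the smallest signal.

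The library labelled TRKC+/- had 162 genes called higher than in WT_1 (1.18% of those measured) and 260 called lower (1.9%). The 2 WT libraries differed more, with 282 genes higher (2.06%) and 451 lower (3.29%) in WT_2 than in WT_1. Set against WT_2 instead, it had 363 genes higher (2.65%) and 272 lower (1.99%). The median log2 ratio of all measured genes was 0.00 to WT_1 and 0.00 to WT_2, so the libraries were level. Of the 162 higher genes, 63 (38.9%) were also higher in WT_2 than in WT_1, and of the 260 lower genes, 100 (38.5%) were also lower in WT_2. Only 30 genes (0.219%) were higher than in both WT libraries and 59 (0.431%) lower than in both. Among the 260 lower genes, 15 were called higher than in WT_2, and 3 of the 162 higher genes were called lower than in WT_2. All these comparisons share libraries, so that the counts are not independent of each other.

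**Figure D1:**
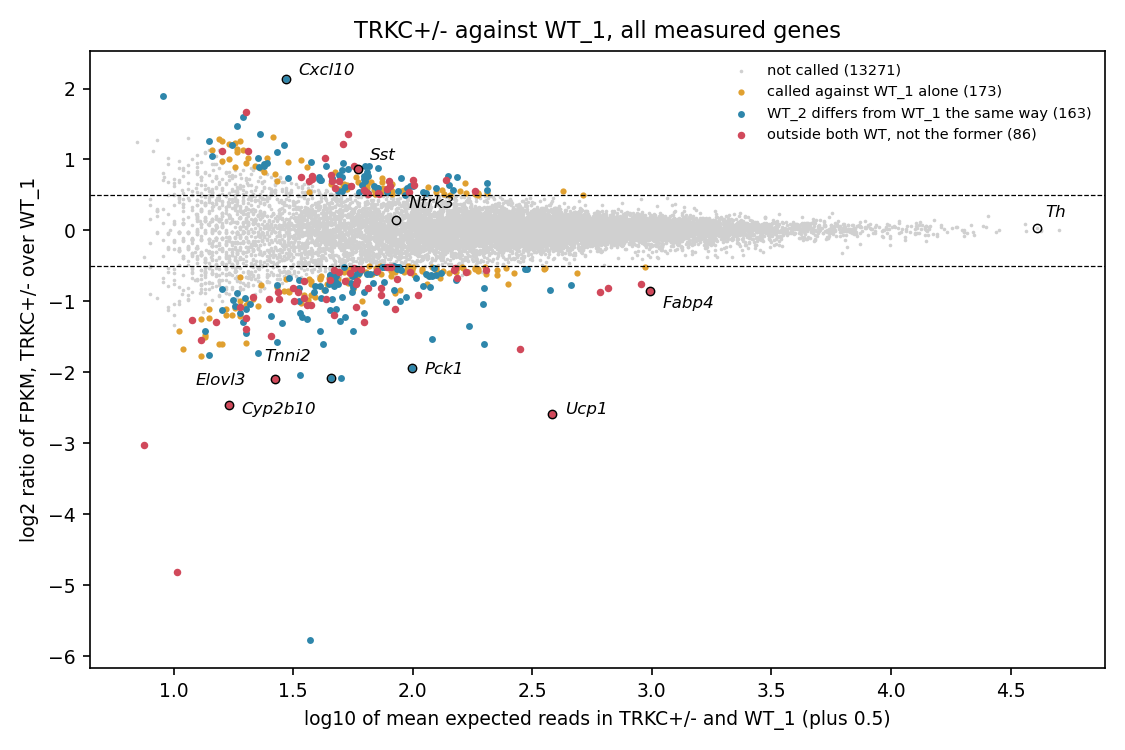
The log2 ratio of FPKM in the library labelled TRKC+/- over WT_1 (vertical axis) is plotted against the log10 of the mean expected reads of both libraries (horizontal axis) for the 13693 measured genes, with dashed lines at the cutoff of 0.5. Of the called genes, 163 also separate WT_2 from WT_1 the same way (blue), 86 others lie outside both WT libraries (red) and 173 do neither (orange), with *Ucp1* and *Fabp4* far from the other genes of their depth and *Th* and *Ntrk3* near 0.

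Of the gene lists examined, brown adipocyte genes were the one in which the library labelled TRKC+/- lay outside both WT libraries most often. Of 20 measured genes of this list, 9 were lower than in WT_1 and 0 were higher, beside 1.9% of all genes, and 6 were lower than in both WT libraries, beside 0.431%. WT_2 differed from WT_1 in 2 of the 20, beside 5.35% of all genes, with *Slc27a2* higher and *Otop1* lower. The list's median log2 ratio was −0.32 to WT_1, −0.31 to WT_2 and 0.01 between the WT libraries, and the value in the library labelled TRKC+/- was the lowest of the 4 for 15 of the 20 genes. In pooled ganglia, fewer adipocytes and less of these RNAs per adipocyte cannot be told apart.

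*Ucp1* (Entrez 22227, chromosome 8 from 85814247 to 85822355 on NCBIM37), the proton carrier that makes brown fat mitochondria produce heat, had 655 expected reads in WT_1, 110 in the library labelled TRKC+/-, 672 in WT_2 and 525 in AdNTF3-Tg. In FPKM these were 47.3, 7.80, 48.1 and 37.8, so that the library labelled TRKC+/- stood far below the other 3, and the WT libraries lay within counting error of each other. The level was 6.00-fold lower than in WT_1 (log2 ratio −2.59, counting interval −2.92 to −2.32) and 6.11-fold lower than in WT_2 (−2.61, −2.92 to −2.33). The 250 bases before its RefSeq start on GRCm38.p6 (chr8:83290098-83290347, plus strand) are shown because *Ucp1* is the best counted of these genes and is known to respond to noradrenaline through cyclic AMP, with the 1 match to the cyclic AMP response element core TGACG in capitals.
Ucp1: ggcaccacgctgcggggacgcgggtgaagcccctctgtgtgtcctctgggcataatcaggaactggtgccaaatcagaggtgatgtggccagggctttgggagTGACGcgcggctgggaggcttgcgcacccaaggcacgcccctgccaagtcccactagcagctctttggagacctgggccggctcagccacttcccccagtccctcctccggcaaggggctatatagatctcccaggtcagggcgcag
The match starts 147 bases before the start. TGACG, searched on both strands, is in the same window of 19.8% of 27025 genes and of 5 of the 16 brown adipocyte genes with a promoter in the RefSeq table, and a match is a description of the sequence, not a site.

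The other 5 brown adipocyte genes below both WT libraries had fewer reads. *Elovl3*, which elongates fatty acids in cold-exposed brown fat, had 43 expected reads in WT_1, 9 in the library labelled TRKC+/-, 46 in WT_2 and 28 in AdNTF3-Tg, a log2 ratio of −2.09 to WT_1 (−3.52 to −1.24) and −2.17 to WT_2 (−3.58 to −1.31). *Cox8b*, a subunit of cytochrome c oxidase found in muscle and brown fat, had 37, 13, 36 and 36 expected reads in the same order, a log2 ratio of −1.48 (−2.58 to −0.60) and −1.49 (−2.52 to −0.53). *Dio2*, the deiodinase that activates thyroid hormone, had 66, 27, 78 and 52, a log2 ratio of −1.19 (−2.03 to −0.66) and −1.39 (−2.23 to −0.89). In these genes both WT libraries lay together and above the library labelled TRKC+/-. *Cpt1b*, which takes long-chain fatty acids into mitochondria of muscle and brown fat, had 115, 53, 93.57 and 66 expected reads, a log2 ratio of −1.11 (−1.65 to −0.67) and −0.80 (−1.35 to −0.33). *Slc27a2*, a fatty acid carrier and acyl-CoA synthetase, had 14, 0, 29 and 11 expected reads, and with 3 reads taken for the library labelled TRKC+/- it was at least 4.79-fold lower than in WT_1 and at least 9.72-fold lower than in WT_2.

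*Cox7a1*, *Otop1* and *Kng2* were called against WT_1 but not against WT_2. *Cox7a1*, a subunit of cytochrome c oxidase, had 50, 32, 45 and 35 expected reads, with log2 ratios of −0.64 (−1.37 to −0.01) and −0.53 (−1.20 to 0.19), and *Kng2*, a kininogen gene, had 20, 5, 12 and 18, with log2 ratios of −1.77 (−3.81 to −0.58) and −0.97 (−3.13 to 0.34). Both were therefore lowest in the library labelled TRKC+/-, but the interval to WT_2 included 0. *Otop1*, a proton channel, had 28 expected reads in WT_1, 10 in the library labelled TRKC+/- and 13 in WT_2, so that WT_2 was on the side of the library labelled TRKC+/-. The 11 genes of the list that were not called include genes of brown fat identity. *Prdm16*, a regulator of the brown fat programme, had 180, 194, 191 and 156 expected reads, a log2 ratio of 0.07 to WT_1 (−0.23 to 0.37). *Cidea*, a lipid droplet protein, had 525, 423, 447 and 437, a log2 ratio of −0.34 (−0.54 to −0.16), and *Ppargc1a*, a coactivator of mitochondrial genes, had 67, 59, 61 and 73, a log2 ratio of −0.20 (−0.75 to 0.31). The summed level of the 20 genes was 568 CPM in WT_1, 430 in the library labelled TRKC+/-, 552 in WT_2 and 511 in AdNTF3-Tg.

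Of 28 measured genes of adipocytes in general, 6 were lower than in WT_1 and 0 higher, beside 1.9% and 1.18% of all genes, and 5 of the 6 were also lower than in WT_2, beside 0.431%. With a cutoff of 1 on the log2 scale, 1 of the 28 was lower. *Fabp4*, the fatty acid carrier of adipocytes, had 1260 expected reads in WT_1, 701 in the library labelled TRKC+/-, 1149 in WT_2 and 879 in AdNTF3-Tg, a log2 ratio of −0.86 to WT_1 (−1.02 to −0.75) and −0.74 to WT_2 (−0.86 to −0.58). *Lpl*, the lipase that frees fatty acids from circulating triglyceride, had 828, 480, 821 and 683 expected reads, with log2 ratios of −0.82 (−0.99 to −0.66) and −0.78 (−0.95 to −0.62). *Gpd1*, which makes glycerol phosphate, had 1119, 676, 1043 and 930, with log2 ratios of −0.76 (−0.90 to −0.63) and −0.64 (−0.78 to −0.49). The library labelled TRKC+/- was the lowest of the 4 for each of them, followed by AdNTF3-Tg. *Pck1*, the enzyme of glyceroneogenesis and gluconeogenesis, had 157, 40, 109 and 96 expected reads, with log2 ratios of −1.94 (−2.55 to −1.50) and −1.41 (−2.01 to −0.92), and WT_2 was itself lower than WT_1, at a log2 ratio of −0.53 (−0.92 to −0.19). *Slc2a4*, the insulin-dependent glucose carrier, had 93, 53, 79 and 62 expected reads, with log2 ratios of −0.82 (−1.36 to −0.35) and −0.57 (−1.11 to −0.06).

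Other adipocyte genes did not lie outside both WT libraries. *Adipoq*, which encodes adiponectin, had 144 expected reads in WT_1, 94 in the library labelled TRKC+/-, 78 in WT_2 and 71 in AdNTF3-Tg, so that it was lower than in WT_1 but WT_2 lay lower still. *Thrsp* and *Plin4*, genes of fat storage, were not called against WT_1 and were higher than in WT_2, and 8 of the 28 genes were lower in WT_2 than in WT_1, beside 3.29% of all genes. *Scd1* and *Fasn*, enzymes of fatty acid synthesis that other cells of the ganglion also express, were the most abundant of the list, with log2 ratios to WT_1 of −0.03 and 0.03. The median of the list was −0.27 to WT_1, −0.05 to WT_2 and −0.23 between the WT libraries. Taking both fat lists together, 15 of 48 measured genes were lower than in WT_1, beside 1.9% of all genes, 9 of the 48 were lower in WT_2 than in WT_1, beside 3.29%, 3 genes were in both counts, and 11 of the 59 genes below both WT libraries came from these lists. *Cyp2b10*, a cytochrome P450 in neither list, had 29, 4, 29 and 16 expected reads, with log2 ratios of −2.46 (−4.86 to −1.39) and −2.45 (−4.83 to −1.36).

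**Figure D2:**
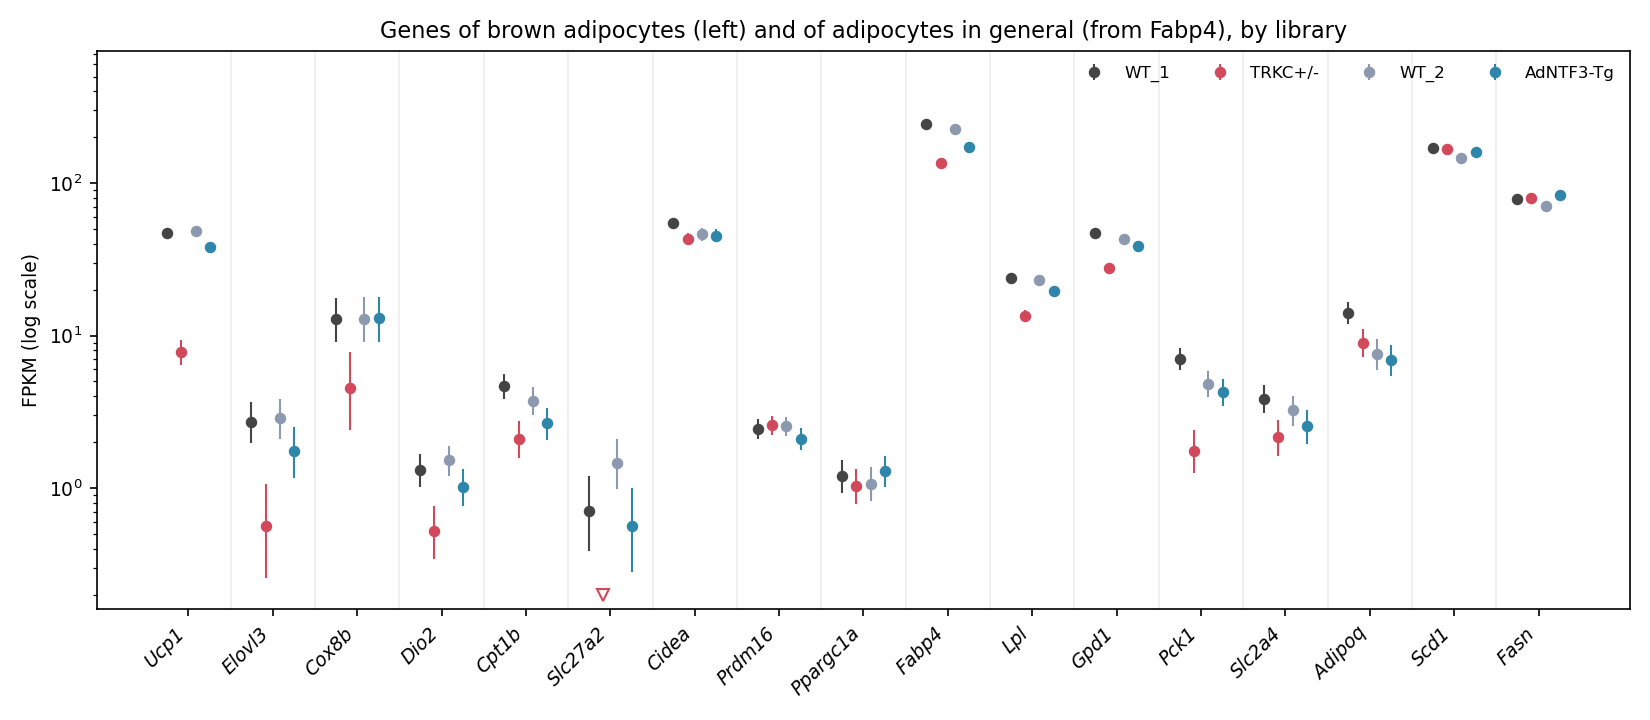
FPKM on a log axis is plotted for genes of brown adipocytes and of adipocytes in general in each library, with the exact 95% counting interval of the reads as bars and an open triangle at the bottom where no reads were listed. *Ucp1*, *Elovl3*, *Cox8b*, *Dio2*, *Fabp4*, *Lpl*, *Gpd1* and *Pck1* are lowest in the library labelled TRKC+/-, while *Prdm16*, *Scd1* and *Fasn* are level across libraries.

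Skeletal muscle genes gave the most calls against WT_1 and none of them lay below both WT libraries. Of 33 measured genes, 18 were lower in the library labelled TRKC+/- than in WT_1, beside 1.9% of all genes, and 17 of these 18 were also lower in WT_2 than in WT_1. WT_2 was lower than WT_1 in 23 of the 33, beside 3.29% of all genes, and 18 of the 33 were higher in the library labelled TRKC+/- than in WT_2, beside 2.65%, so that the direction depends on the control. The median log2 ratio was −0.59 to WT_1 and 0.79 to WT_2, and −1.30 between the WT libraries. The level was between those of the WT libraries for 25 genes, and WT_1 was the highest of the 4 libraries for 27. The sarcomeric actin gene *Acta1* had 262 expected reads in WT_1, 129 in the library labelled TRKC+/-, 14 in WT_2 and 97 in AdNTF3-Tg. *Atp2a1*, the calcium pump of fast muscle, had 245, 97, 1 and 68. *Casq1*, which stores calcium in the sarcoplasmic reticulum and was under the minimum for a measured gene, had 22, 5, 0 and 7. The WT libraries were thus the extremes for these genes. The summed level of the 48 listed muscle genes was 703 CPM in WT_1, 564 in the library labelled TRKC+/-, 449 in WT_2 and 519 in AdNTF3-Tg, and *Casq1*, *Myh1* and *Pvalb* had no reads in WT_2. The tropomyosin gene *Tpm1*, which other cells express too, had 1994, 1992, 1931 and 1995 expected reads.

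Interferon-stimulated and chemokine genes were higher than in WT_1 where they were called, and WT_2 was often at the same level. Of 43 measured interferon-stimulated genes, 3 were higher (*Mx1*, *Usp18* and *Gbp6*) and 0 lower, beside 1.18% of all genes, with a median log2 ratio of 0.21. In WT_2, 7 of the 43 were higher than in WT_1, beside 2.06% of all genes, and the median was 0.16. Against WT_2 the library labelled TRKC+/- had 0 genes higher and 2 lower, with a median of 0.01. *Mx1*, an antiviral GTPase, had 16 expected reads in WT_1, 41 in the library labelled TRKC+/-, 55 in WT_2 and 23 in AdNTF3-Tg. *Usp18*, the protease that removes ISG15, had 47, 79, 57 and 38, with log2 ratios of 0.70 to WT_1 (0.17 to 1.26) and 0.45 to WT_2 (−0.05 to 0.98).

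Of 26 measured chemokine and NF-κB genes, 2 were higher than in WT_1, *Cxcl10* and *Bcl3*, beside 1.18% of all genes, and both were also higher in WT_2. *Cxcl10*, a chemokine induced by interferons, had the largest increase over WT_1 among the named genes that were measured, with 10 expected reads in WT_1, 48 in the library labelled TRKC+/-, 47 in WT_2 and 14 in AdNTF3-Tg. Its log2 ratio was 2.14 to WT_1 (1.22 to 3.37) and 0.01 to WT_2 (−0.59 to 0.63), so that WT_1 and AdNTF3-Tg formed the low pair and the library labelled TRKC+/- was level with WT_2. *Bcl3*, a nuclear partner of NF-κB, had 45, 79, 92 and 47 expected reads, in the same arrangement. The 250 bases before the RefSeq start of *Cxcl10* on GRCm38.p6 (chr5:92348890-92349139, minus strand, written 5′ to 3′ along the gene) are shown because this gene leads the list, with the 1 match to the interferon-stimulated response element GAAANNGAAA in capitals.
Cxcl10: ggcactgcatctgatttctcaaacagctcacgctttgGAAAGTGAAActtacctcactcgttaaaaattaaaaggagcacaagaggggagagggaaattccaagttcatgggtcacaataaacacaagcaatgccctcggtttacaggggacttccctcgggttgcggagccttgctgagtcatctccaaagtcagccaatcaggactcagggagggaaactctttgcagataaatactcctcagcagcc
The match starts 213 bases before the start. GAAANNGAAA, searched on both strands, is in this window of 3.46% of the 27025 genes, of 16 of the 32 listed interferon-stimulated genes in the RefSeq table and of 0 of the 16 brown adipocyte genes.

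**Figure D3:**
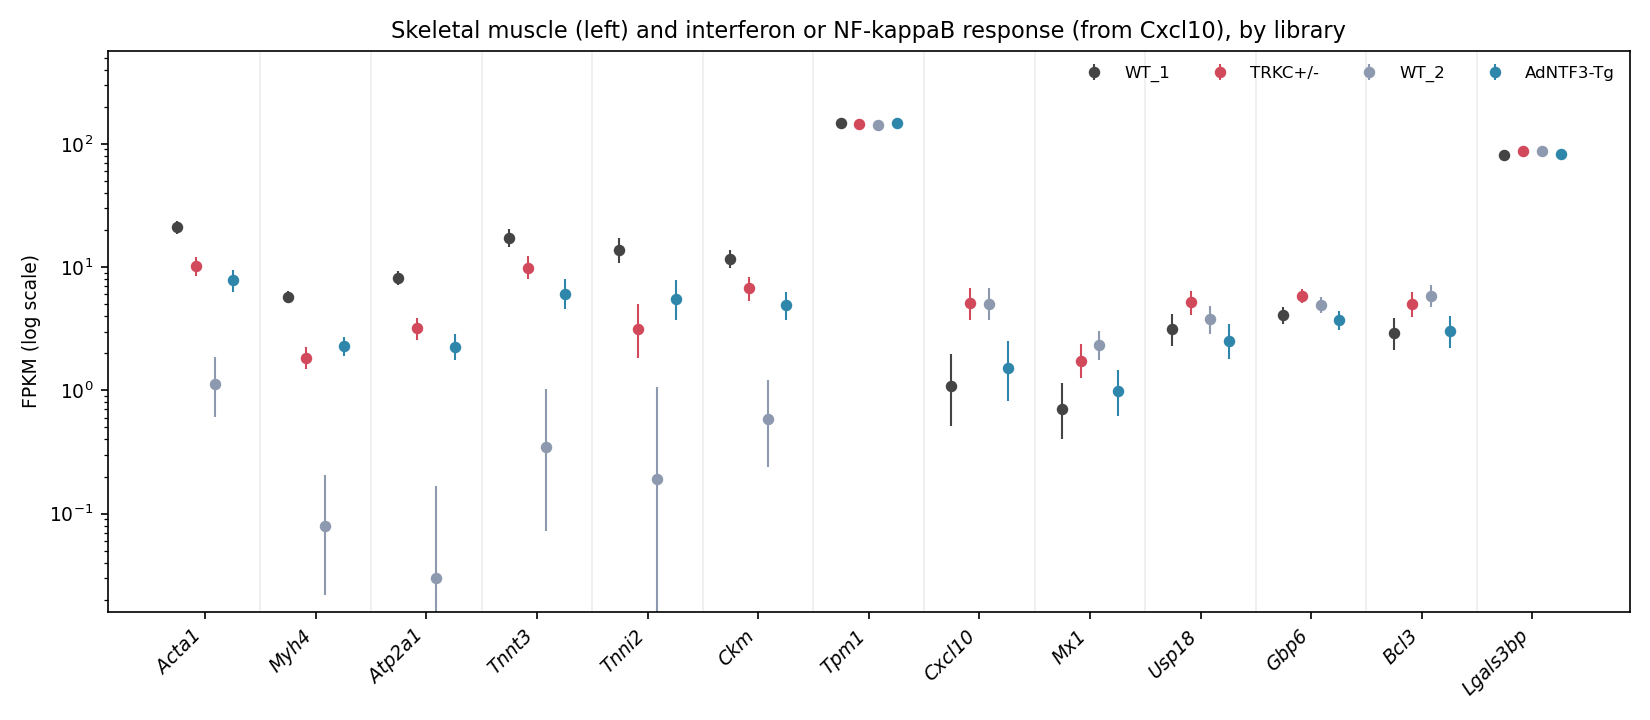
FPKM on a log axis is plotted for skeletal muscle genes (left) and for interferon and NF-κB response genes (from *Cxcl10*) in each library, with the exact 95% counting interval of the reads as bars, which run off the axis where 1 read was listed. For *Acta1* and *Atp2a1* the library labelled TRKC+/- lies between WT_1 and WT_2, and for *Cxcl10* it is level with WT_2.

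Genes of the sympathetic neurons themselves were level. Of the 25 genes of the list, 1 was higher than in WT_1 (*Insm1*) and 0 lower, beside 1.18% and 1.9% of all genes, with a median log2 ratio of 0.05 to WT_1 and 0.00 to WT_2. *Dbh*, which converts dopamine to noradrenaline, had log2 ratios of 0.01 and 0.05, *Npy*, the cotransmitter neuropeptide Y, −0.02 and 0.10, and *Slc6a2*, the noradrenaline carrier, 0.09 and 0.02. *Insm1*, a transcription factor of neuroendocrine cells, had 9 expected reads in WT_1, 25 in the library labelled TRKC+/-, 24 in WT_2 and 18 in AdNTF3-Tg, so that WT_1 was the library that stood apart. Of 29 measured genes of neurotrophins, their receptors and adaptors, 0 were higher and 1 was lower than in WT_1, beside the same shares, and against WT_2 0 were higher and 0 lower, beside 2.65% and 1.99%. *Ngfr*, which encodes p75, had 9225, 9477, 10664 and 10010. The lower gene was *Cbl*, a ubiquitin ligase that acts on activated receptors, with a log2 ratio of −0.76 to WT_1 and −0.29 to WT_2 (−0.73 to 0.13).

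Of 44 measured genes of axon growth and its cytoskeleton, 1 was lower than in WT_1 and 0 higher, and of 36 of ion channels and synapse 1 was lower and 0 higher, close to the 1.9% of all genes that were lower. The lower genes were *Nhs*, which remodels actin, with 85 expected reads in WT_1, 50 in the library labelled TRKC+/- and 35 in WT_2, and *Kcnq3*, a channel of the M-current, with 126, 80 and 76. WT_2 was below WT_1 in both. The growth cone gene *Gap43* had a log2 ratio of 0.00, the microtubule genes *Tubb3* 0.04 and *Stmn2* −0.05, and the synaptic vesicle gene *Syp* 0.07. Of 16 measured neuropeptide genes, 1 was higher and 1 lower than in both WT libraries, beside 0.219% and 0.431% of all genes. WT_2 also had 1 gene of this list higher and 1 lower than WT_1, beside 2.06% and 3.29%. *Sst*, which encodes somatostatin, was the one higher than in both, with 41, 76, 42 and 39 expected reads and log2 ratios of 0.87 (0.29 to 1.44) and 0.82 (0.29 to 1.43). *Tac1*, the precursor of substance P, was lower than in both, with 78, 37, 68 and 103 expected reads and log2 ratios of −1.08 and −0.88 (−1.50 to −0.29).

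Among 8 measured sensory neuron genes, 3 were lower than in WT_1, beside 1.9% of all genes, of which *Tac1* and *Scn10a* were also lower than in WT_2, beside 0.431%. *Scn10a*, the sodium channel of nociceptors, had 27, 10, 25 and 39 expected reads, with log2 ratios of −1.08 (−2.68 to −0.38) and −0.95 (−2.55 to −0.22). The third was *Pvalb*, which muscle expresses too. *Calca*, another gene of nociceptors, had 35, 23, 26 and 52 expected reads and was not called. Defining genes of sensory neurons had few reads in every library, with 3, 2, 5 and 4 of *Pou4f1*, 4, 3, 6 and 9 of *Prdm12*, and 7, 10, 3 and 10 of *Trpv1*, and they were under the minimum for a measured gene. Of 27 immediate early genes, *Fosb*, *Egr2* and *Npas4* were higher than in WT_1, beside 1.18% of all genes, and 0 were lower, and 5 were higher in WT_2 than in WT_1, beside 2.06%. *Npas4*, which follows neuronal activity, had 62, 101, 81 and 60 expected reads, with a log2 ratio to WT_2 of 0.30 (−0.13 to 0.75). *Fos* had 323, 423, 510 and 508, a log2 ratio of 0.36 to WT_1 and −0.28 to WT_2.

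**Figure D4:**
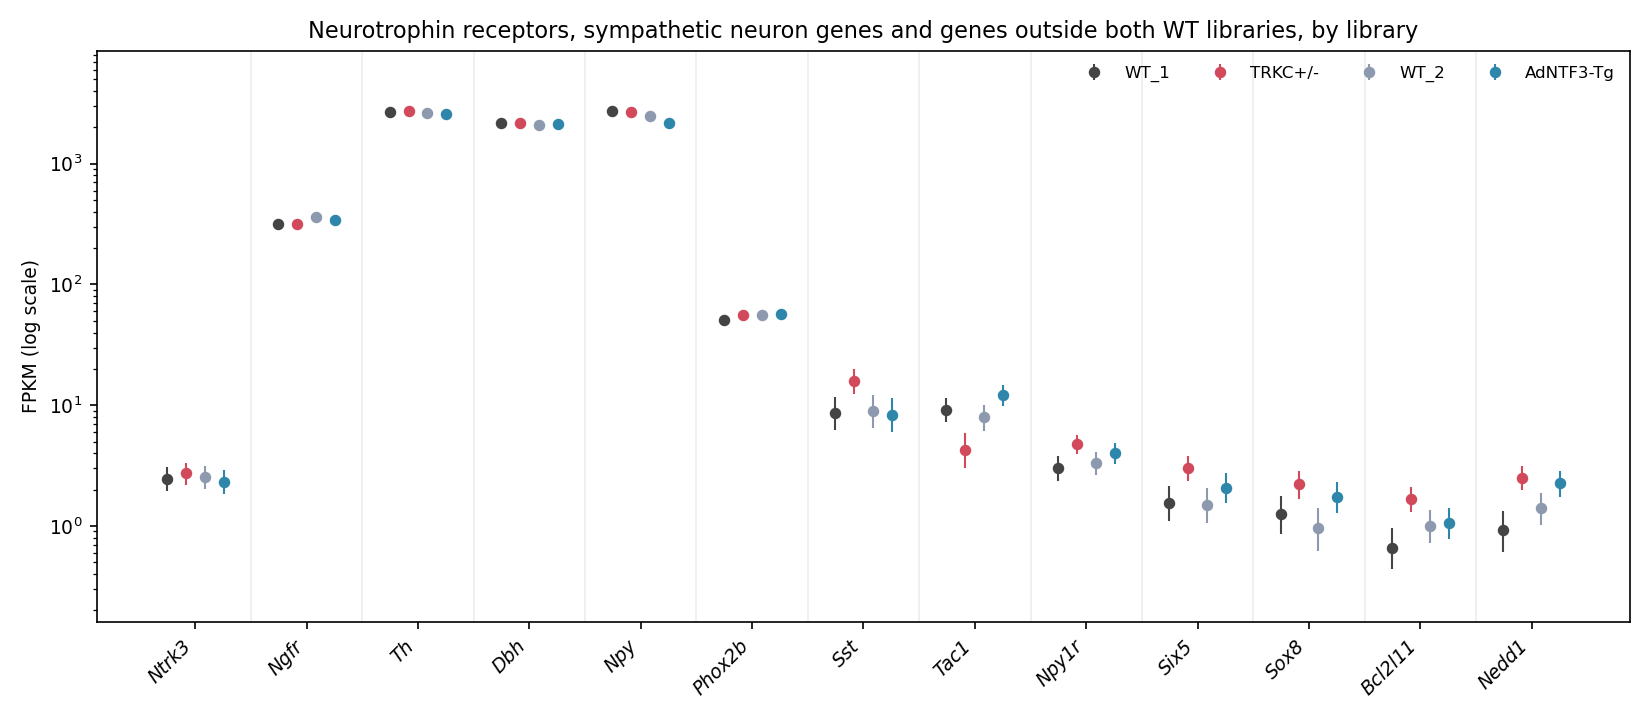
FPKM on a log axis is plotted for neurotrophin receptors, sympathetic neuron genes and genes in which the library labelled TRKC+/- lies outside both WT libraries, with the exact 95% counting interval of the reads as bars. *Ntrk3*, *Ngfr*, *Th*, *Dbh* and *Npy* are close to level, *Sst*, *Six5*, *Sox8*, *Bcl2l11* and *Nedd1* are highest in the library labelled TRKC+/-, and *Tac1* is lowest in it.

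Of the 30 genes above both WT libraries, 24 had a mean of at least 1 FPKM, and the 12 ranked highest by the smaller of both ratios were *Prg4*, *Six5*, *Sst*, *Nedd1*, *Sox8*, *3110056K07Rik*, *H2ac18*, *Pkn3*, *Tgif1*, *Anpep*, *Pxdc1* and *Bcl2l11*. *Prg4*, which encodes the joint lubricant lubricin, had 28 expected reads in WT_1, 57 in the library labelled TRKC+/-, 21 in WT_2 and 31 in AdNTF3-Tg, with log2 ratios of 1.01 (0.31 to 1.70) and 1.24 (0.69 to 2.23). The homeobox gene *Six5* had 38, 75, 37 and 51 expected reads, with log2 ratios of 0.91 (0.36 to 1.55) and 0.96 (0.43 to 1.62). *Bcl2l11*, the death-promoting protein BIM known from sympathetic neurons deprived of nerve growth factor, had 28, 73, 43 and 45, with log2 ratios of 1.21 (0.70 to 2.03) and 0.68 (0.19 to 1.33). The library labelled TRKC+/- was the highest of the 4 for these genes. *Nedd1*, which binds γ-tubulin at centrosomes, had 28, 78, 43 and 69 expected reads, so that AdNTF3-Tg was nearly as high. The lowest end of an interval to WT_1 among the 12 genes was that of *Tgif1*, at 0.01. The reads of the histone gene *H2ac18* were not whole numbers, as where reads are divided among near-identical genes, and its level is uncertain. *Npy1r*, a receptor of neuropeptide Y named after its values were seen, was also above both WT libraries, with 77.19, 125, 86.59 and 103.88 expected reads and log2 ratios of 0.64 and 0.51.

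Of the 59 genes below both WT libraries, 53 had a mean of at least 1 FPKM, and the 12 of these ranked highest in the same way were *Mup18*, *Ucp1*, *Cyp2b10*, *Elovl3*, *Npcd*, *Immp2l*, *Cox8b*, *Pck1*, *Ncf4*, *Rpl34-ps1*, *Dio2* and *Cd14*. Beside the fat genes described above, *Immp2l*, a peptidase of the mitochondrial inner membrane, had 19 expected reads in WT_1, 6 in the library labelled TRKC+/-, 30 in WT_2 and 12 in AdNTF3-Tg, with log2 ratios of −1.54 (−3.31 to −0.32) and −2.17 (−3.88 to −1.04). *Cd14*, the coreceptor for lipopolysaccharide on myeloid cells, had 48, 23, 57 and 33, with log2 ratios of −1.04 (−1.88 to −0.35) and −1.28 (−2.08 to −0.60). *Ncf4*, a subunit of the phagocyte NADPH oxidase, had 21, 8, 22 and 9, so that AdNTF3-Tg was as low. The expected reads of *Mup18*, *Npcd* and *Rpl34-ps1* were not whole, as were those of 12 of the 59 genes in all, and how reads were divided among related or overlapping genes could set their values. *Npcd* had 422.05, 137.67, 488.1 and 189.34.

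Of the genes that also separate the WT libraries, the 8 with the largest increases over WT_1 were *Cxcl10*, *Ube2t*, *Tgm1*, *Efcab1*, *Mx1*, *Drc3*, *Fjx1* and *Gt(ROSA)26Sor*. *Tgm1*, a transglutaminase that cross-links proteins, had 8 expected reads in WT_1, 30 in the library labelled TRKC+/-, 43 in WT_2 and 20 in AdNTF3-Tg, and *Fjx1* had 24, 50, 57 and 48. WT_1 was the lowest of the 4 libraries for all 8 genes. The 8 with the largest decreases were *Gm14308*, *Tnni2*, *Gm14305*, *Apoo-ps*, *Pck1*, *1600020E01Rik*, *Msr1* and *Myh4*. The noncoding RNA *1600020E01Rik* had 34, 10, 10 and 29 expected reads, so that the library labelled TRKC+/- was level with WT_2 and AdNTF3-Tg close to WT_1. *Gm14308* had 73.34 expected reads in WT_1 and none in the other 3, and its counts, like those of *Gm14305* and *Apoo-ps*, were not whole. *Msr1*, a scavenger receptor of macrophages, had 54 and 29 expected reads in WT_1 and the library labelled TRKC+/-, a log2 ratio of reads of −0.93, while its log2 ratio of FPKM was −1.60, because the transcript length behind its FPKM differed between libraries. Of 18 genes that the study discusses for opposite changes in the mutants, 13 were lower and 3 higher than in WT_1, and 11 of the 13 and all 3 also separated WT_2 from WT_1. That list was chosen by the study on these samples, so that these libraries are not independent evidence of its direction. The study also measured some of these genes by RT-PCR, which is outside the data used here.

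Markers of other cell types were counted in the same way. Of 24 macrophage genes, 3 were lower than in WT_1 (*Lyz2*, *Msr1* and *Cd14*), beside 1.9% of all genes, and 0 higher, while *Csf1r*, the receptor that macrophages depend on, had 431, 403, 360 and 400 expected reads, and the summed level was 558 CPM in WT_1, 483 in the library labelled TRKC+/-, 511 in WT_2 and 435 in AdNTF3-Tg. None of 18 satellite glia genes or 20 endothelial genes was called, and 1 of 17 Schwann cell genes (*Egr2*) and 1 of 30 collagen and fibroblast genes (*Col12a1*) was higher, beside 1.18% of all genes. Against WT_2, 8 of the 30 collagen and fibroblast genes were higher, beside 2.65% of all genes, and 0 lower, with a median log2 ratio of 0.36. Of 7 measured blood cell genes, 0 were called against WT_1, while 4 were lower in WT_2 than in WT_1, beside 3.29% of all genes. Only 2 of 21 listed lymphocyte genes were measured, and neither was called. Of 16 smooth muscle genes, *Des*, which skeletal muscle expresses too, was lower, beside 1.9% of all genes. Of 20 genes of antigen presentation *H2-Q7* was higher, beside 1.18% of all genes, with 73.86, 110.99, 144.74 and 80.45 expected reads.

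Calls against WT_1 in lists of metabolism and stress lay mostly in glucose metabolism and in genes that respond to glucocorticoids, and some of these genes are in other lists too. For 75 nuclear genes of oxidative phosphorylation the median log2 ratio was −0.15 to WT_1 and −0.04 to WT_2, and for 79 cytosolic ribosomal proteins −0.18 and −0.08, with 0 genes called in either. In these lists 72 of 75 and 78 of 79 genes were below 0 against WT_1, and WT_1 was the highest of the 4 libraries for 55 and 70 of them. The 3425 measured genes with the shortest transcripts had a median of −0.05 to WT_1, and the part of length in these values was not tested. Of 32 genes of glucose and glycogen metabolism, *Pgm2* was higher and *Pygm*, *Slc2a4* and *Pdk4* were lower, so that 4 of 32 were called, beside 3.08% of all genes. *Pgm2* and *Pygm*, the latter also in the skeletal muscle list, separated WT_2 from WT_1 the same way. *Slc2a4*, also in the list of adipocytes in general, and *Pdk4* were below both WT libraries, 2 of the 32 beside 0.431% of all genes. *Pdk4*, the kinase that turns off pyruvate dehydrogenase, had 96, 51, 105 and 95 expected reads and was below both WT libraries, with log2 ratios of −0.90 (−1.47 to −0.45) and −1.01 (−1.56 to −0.55). It was, with *Zbtb16*, also 1 of 2 lower genes among 17 that respond to glucocorticoids, beside 1.9% of all genes, and 4 of the 17 were lower in WT_2 than in WT_1, beside 3.29%. Of 30 genes of cholesterol and fatty acid synthesis, 0 were called against WT_1, beside 3.08% of all genes. The same held for 21 heat shock and cold-inducible genes and 17 circadian clock genes. Against WT_2, however, 5 of the 17 circadian clock genes were higher and 0 lower, beside 2.65% and 1.99% of all genes. Among 12 histone genes, 1 (*H2ac18*) was higher than in WT_1, beside 1.18% of all genes.

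**Figure D5:**
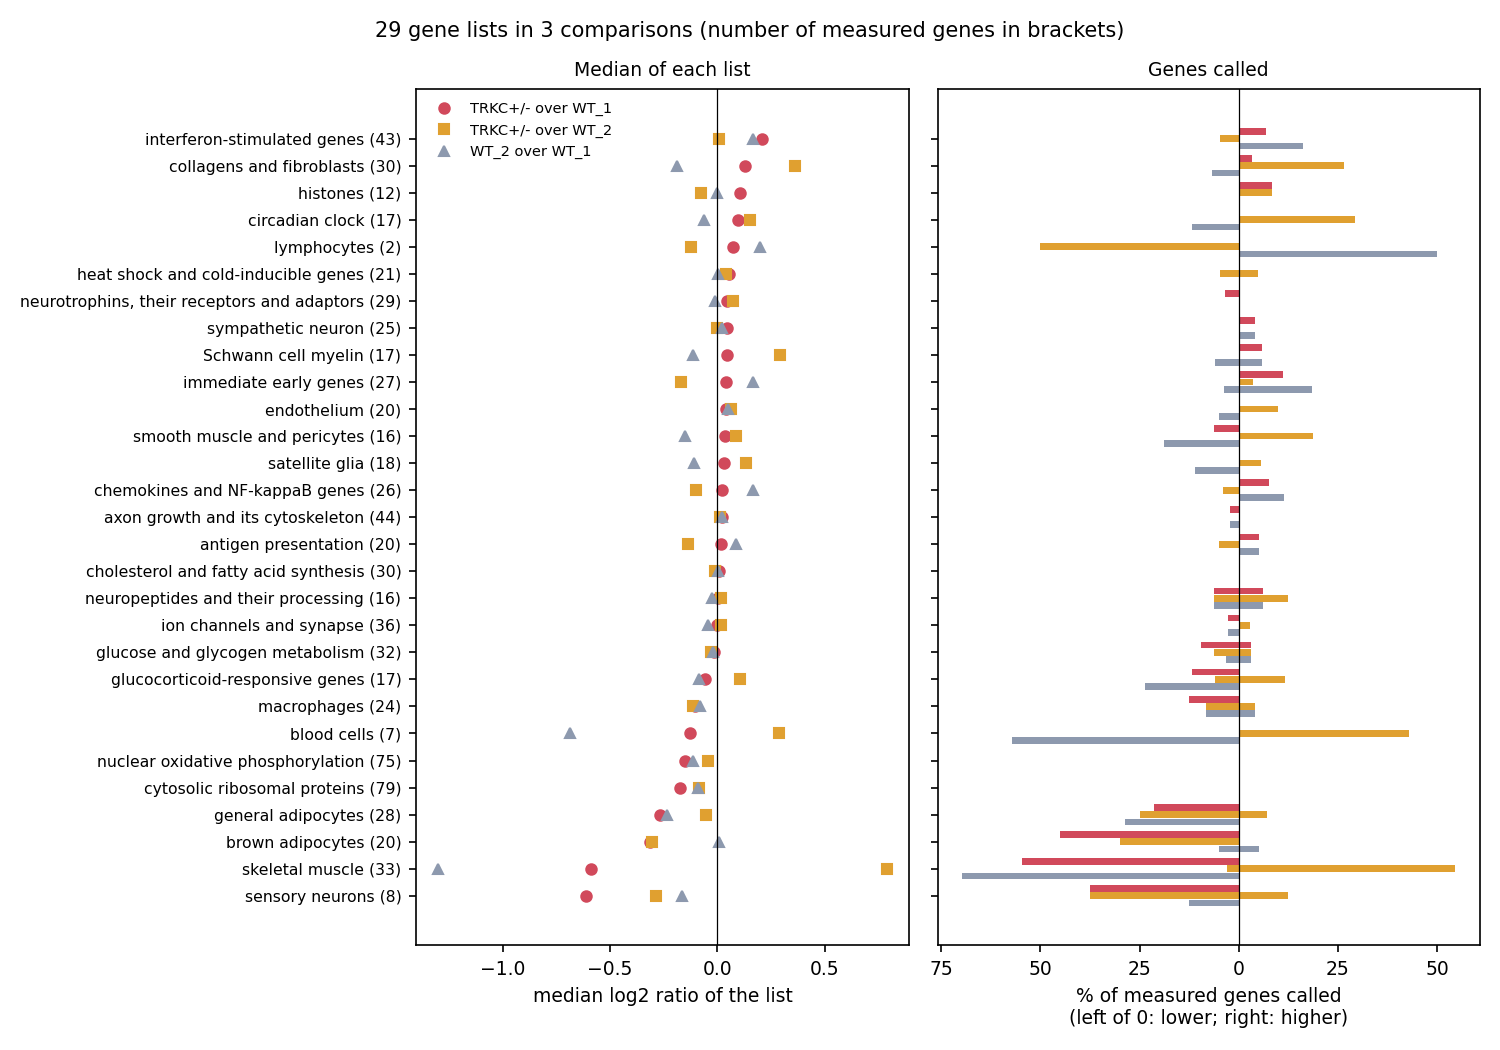
For each of 29 gene lists (measured genes in brackets), the left panel plots the median log2 ratio and the right panel the percentage of measured genes called lower (left of 0) or higher (right of 0), for the library labelled TRKC+/- over WT_1 (red), the same over WT_2 (orange) and WT_2 over WT_1 (grey). Brown adipocyte genes have medians of −0.32 and −0.31 in both TRKC+/- comparisons, while the skeletal muscle median is −0.59 over WT_1 and 0.79 over WT_2.

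Calls were also counted among the neighbours of *Ntrk3*. Of 68 measured genes within 10 Mb of *Ntrk3* on chromosome 7, 4 (5.88%) were called against WT_1, beside 3.08% of all measured genes called in either direction, and 1 lay outside both WT libraries. Within 5 Mb 2 of 56 genes (3.57%) were called, and within 20 Mb 7 of 134 (5.22%).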

How the data were processed

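RNA-seq was measured in 4 libraries of pooled T1–T4 sympathetic ganglia, of which WT_1 and TRKC+/- form the main comparison. According to the methods, mRNA was enriched with oligo(dT), single-end reads were filtered with SOAPnuke (v1.5.2) and mapped to mm9 with HISAT2 (v2.0.4), while the submitters' processing notes name RSEM and mm10. The authors deposited an unnormalized expected count for each gene, and a count can be fractional where a read was shared among genes or transcripts. The authors also deposited FPKM values, computed with a transcript length that can differ between libraries. Whether counting used strand is not given in the sources used here.

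Genes missing from a library were taken as 0. Counting intervals are exact Clopper-Pearson 95% intervals of the share of rounded expected counts in 1 of 2 libraries, converted to log2 ratios per library total. They and the floor of 3 reads, between 0.337 and 0.346 CPM, cover counting error only. Between 92.6% and 93.7% of counts per library were whole. There were no replicates and no p-values. Rows were matched by Entrez identifier to RefSeq names (17619 of 17667), positions are from GENCODE on NCBIM37, and 846 of 857 genes in 30 lists were matched. Named genes are those of the lists, the 12 in each direction outside both WT libraries and the 8 in each direction that also separate the WT libraries, at a mean of at least 1 FPKM. The comparisons, lists and rules were chosen with earlier results of these data known. Scripts used Python 3.11.15, scipy 1.17.1 and, for TMM scaling, edgeR 4.0.16, and were tested on simulated data. Values of 2 listed genes are not reported here.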

Additional observations from a re-analysis of the deposited data

How the results depend on the processing

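The counts of called genes depended on how strict a call was. With a pseudocount of 1, 74 genes were higher and 159 lower than in WT_1 (178 and 296 for WT_2 against WT_1), 13 and 34 lay outside both WT libraries, and 30 and 52 also separated the WT libraries. With a cutoff of 1 these were 30 and 74 (67 and 150), 3 and 16, and 10 and 25. With 99% intervals they were 78 and 158, 11 and 29, and 28 and 56. Each of these alternatives is stricter by construction. The 8 counts stayed within 1.5 times of their value with a pseudocount of 0.01, no filter, a filter at 1 FPKM, TMM scaling, centring on the median, whole counts only, and removal of a trend on GC content and length, which had values for 86.6% of measured genes. With the mean of both WT libraries as control, 139 genes were higher and 206 lower. Of the 20 brown adipocyte genes, between 6 and 9 were lower under every alternative, 6 of 17 with the filter at 1 FPKM, where the median was −0.20, and 6 of 20 against WT_2. The other lists moved more: general adipocyte genes lower than in WT_1 fell from 6 to 1 with a cutoff of 1 (1 below both WT libraries), skeletal muscle genes from 18 to 8 with that cutoff, 4 with the mean of both WT libraries and 1 against WT_2, and the 3 higher interferon-stimulated genes to 2 with a pseudocount of 1 or whole counts only, 1 with a cutoff of 1 or with the mean of both WT libraries, and 0 against WT_2.

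With WT_2 as control, 363 genes were higher in the library labelled TRKC+/-. The median of a list then turned its sign from −0.59 to 0.79 for skeletal muscle, −0.77 to 0.089 for the genes the study discusses, 0.043 to −0.17 for immediate early genes, 0.024 to −0.10 for chemokine and NF-κB genes, 0.073 to −0.12 for lymphocytes, 0.016 to −0.14 for antigen presentation, −0.13 to 0.29 for blood cells, −0.056 to 0.11 for glucocorticoid-responsive genes and 0.11 to −0.078 for histones, and, within 0.05 of 0 on both sides, 0.046 to −0.003 for sympathetic neuron genes, −0.0028 to 0.019 for ion channels and synapse, and 0.0074 to −0.0085 for cholesterol and fatty acid synthesis. It kept its sign but moved from 0.21 to 0.0078 for interferon-stimulated genes, −0.27 to −0.052 for general adipocytes, 0.029 to 0.14 for satellite glia, 0.044 to 0.29 for Schwann cell myelin, 0.13 to 0.36 for collagens and fibroblasts, −0.61 to −0.29 for sensory neurons and −0.15 to −0.042 for oxidative phosphorylation. Among named genes the log2 ratio turned from lower to higher for *Adipoq* (0.25), *Acta1* (3.08), *Actn3* (0.72), *Atp2a1* (4.66), *Ckm* (3.30), *Des* (0.60), *Eno3* (0.23), *Myh1* (3.68), *Myh4* (3.43), *Mylpf* (2.20), *Neb* (0.47), *Pvalb* (4.48), *Pygm* (1.73), *Ryr1* (0.40), *Tnnc2* (4.11), *Tnni2* (3.49), *Tnnt3* (4.48), *Ttn* (0.22), *Kcnq3* (0.063), *Nhs* (0.44), *Zbtb16* (0.64) and *Apoo-ps* (1.80). It turned from higher to lower for *Bcl3* (−0.23), *Egr2* (−0.017), *Fjx1* (−0.20), *Fosb* (−0.26), *Gt(ROSA)26Sor* (−0.017), *H2-Q7* (−0.45), *Mx1* (−0.40), *Tgm1* (−0.52), *Pgm2* (−0.20) and *Ube2t* (−0.44). The cause of these turns was not tested. With a pseudocount of 1 the medians were −0.40 for skeletal muscle, −0.29 for sensory neurons and −0.57 for the genes the study discusses, and without the filter 0.00 for blood cells and −0.15 for sensory neurons. The log2 ratio of *Ntrk3* stayed within its counting interval under each alternative.

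No paired analysis was possible because each of the 4 labelled groups, WT_1 and WT_2 included, holds 1 pool. With 1 pool of 6 TRKC+/- mice and 2 wild-type pools, the spread between mice is unknown, and a difference of the size seen between the WT libraries can arise without the mutation. A gene with equal reads in both libraries needs at least 70 in each for its 95% interval to stay within the cutoff of 0.5.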

Other observations

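A few other genes below both WT libraries, chosen after their values were seen, are known from myeloid cells. In the macrophage list itself, 1 of 24 measured genes (*Cd14*) lay below both WT libraries, beside 0.431% of all genes. Of the 24, 8 had a log2 ratio above 0 to WT_1. Against WT_2, 1 was higher and 2 lower, beside 2.65% and 1.99% of all genes. *P2ry13*, a purine receptor of macrophages, had 17 expected reads in WT_1, 6 in the library labelled TRKC+/-, 17 in WT_2 and 15 in AdNTF3-Tg. *Pstpip2*, an adaptor that restrains macrophage activation, had 46, 23, 46 and 54. *Cd300a*, an inhibitory receptor of leukocytes, had 55.58, 37.15, 57.18 and 52.95. The broad macrophage genes *Cd68* and *Adgre1* had 95, 101, 89 and 83 and 127, 121, 99 and 94, with log2 ratios to WT_1 of 0.07 and −0.10.

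3 further genes outside both WT libraries, in both directions, were also chosen after their values were seen. In the lists of sympathetic neuron genes, of neurotrophins with their receptors, and of ion channels and synapse, 0 genes lay outside both WT libraries. Of all measured genes, 0.219% lay above both and 0.431% below both, so that a count of 0 in lists of this size does not set them apart. *Chrm4*, a muscarinic acetylcholine receptor, had 65, 43, 66 and 46 expected reads, with log2 ratios of −0.60 and −0.61. *Cbln1*, a secreted organizer of synapses, had 36, 18, 40 and 37, with log2 ratios of −0.96 and −1.09. *Gdf10*, a secreted protein of the TGF-β family with a mean under 1 FPKM, had 8, 31, 10 and 9, with log2 ratios of 1.67 and 1.43. In *Chrm4* AdNTF3-Tg was level with the library labelled TRKC+/-, while in *Cbln1* and *Gdf10* it was level with the WT libraries.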
